A study of Homo sapiens with 6 samples.

Results

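The 6 peroxiredoxins (PRDX1 to PRDX6) and 4 of the glutathione peroxidases (GPX1, GPX2, GPX4 and GPX8) were examined by mRNA sequencing in HCCC9810 cells after exposure to isolinderalactone (ILL). The 10 genes were taken by symbol from the 19470 genes of the count table, and all 10 had enough counts to be tested. HCCC9810 is an established line of human cholangiocarcinoma (CCA), the cancer of the bile duct epithelium, and carries no engineered change in any sample. Of the 6 libraries, 3 came from cells given 20 μM ILL for 24 h and 3 from cells given DMSO, the vehicle, for 24 h (control). The study asked how gene expression in CCA cells changes under ILL, so the comparison of ILL with control is the only one the design allows. The labels do not say whether the 3 libraries of a group came from separate cultures, so the p-values below measure the spread among these libraries, which may be technical. A single cell line at a single dose and time was sequenced.

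Peroxiredoxins are abundant thiol enzymes that reduce hydrogen peroxide, organic hydroperoxides and peroxynitrite with a peroxidatic cysteine. In most of them a second, resolving cysteine closes a disulfide that thioredoxin opens again, whereas PRDX6 lacks a resolving cysteine and relies on glutathione. Glutathione peroxidases carry out similar reductions with glutathione as the usual donor, and the classical members use selenocysteine, which is encoded by a UGA codon that would otherwise stop translation, in place of the active-site cysteine.

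The stretches of coding sequence around the peroxidatic residue are shown because they carry the feature that groups the 10 genes. Each is 30 bases long, read 5′ to 3′ on the coding strand of the GENCODE 29 transcripts (GRCh38), with the codon of the peroxidatic residue in capitals.
PRDX1: gacttcacctttgtgTGCcccacggagatc
PRDX2: gacttcacttttgtgTGCcccaccgagatc
PRDX3: gatttcacctttgtgTGTcctacagaaatt
PRDX4: gatttcacatttgtgTGTccaactgaaatt
PRDX5: gccttcacccctggaTGTtccaagacacac
PRDX6: gactttaccccagtgTGCaccacagagctt
GPX1: aatgtggcgtccctcTGAggcaccacggtc
GPX2: aatgtggcttcgctcTGAggcacaaccacc
GPX4: aacgtggcctcccagTGAggcaagaccgaa
GPX8: aacgtggccagtgacTGCcaactcacagac

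The codon is TGC or TGT, both cysteine, in the 6 peroxiredoxins, and TGA, read as selenocysteine, in GPX1, GPX2 and GPX4. In GPX8 the position aligned with the selenocysteine of GPX4 is a TGC codon. All 10 codons lie in coding exons, among them chr19:12801020-12801022 in exon 3 of 6 of PRDX2 (minus strand), chr11:64319860-64319862 in exon 2 of 6 of PRDX5 (plus strand) and chr14:64942607-64942609 in exon 1 of 2 of GPX2 (minus strand). Among the translated proteins PRDX1 and PRDX2 were the closest pair, with 77.8% identical residues over 198 aligned positions, and GPX1 and GPX2 followed within the glutathione peroxidases with 67.4%. PRDX5 and PRDX6 shared at most 27.9% and 33% of residues with any other peroxiredoxin.

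The libraries held 34282764 to 37758569 counts each. Spearman correlations between libraries were 0.9963 to 0.9974 within a group and 0.9174 to 0.9229 between the groups. The epithelial markers KRT7, KRT8, KRT19 and EPCAM were present at 159.9 FPKM or more in every library. Of 12 markers of blood, endothelial, stromal and hepatocyte lineages, 7 were tested, of which 2 rose and 0 fell by the edgeR quasi-likelihood test. By the same test 36.2% of all genes tested rose and 36.9% fell. CD68, a lysosomal protein of macrophages, went from 37.8 to 113 CPM (log2 1.58, adjusted p = 5.4e-17, a DEG) and ALB, the albumin of hepatocytes, from 5.88 to 9.52 CPM (log2 0.69, adjusted p = 0.011). PTPRC, CD3E and DCN had at most 9 counts per library and HBA1 at most 13. HBB had 132 counts in control replicate 1, 146 in ILL replicate 1 and 0 elsewhere. Summed over the 12 markers, counts were 1637 to 1963 in control and 4381 to 4688 with ILL, and without CD68 they were 352 to 567 and 352 to 790. Without the first library of each group the same numbers of the 10 genes were called in each direction as with all 6, as given next, and the part of these markers in the results was not tested.

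ILL split the 10 genes in both directions. GPX2, PRDX5 and GPX8 rose, PRDX2, PRDX6, PRDX3 and PRDX4 fell, and PRDX1, GPX1 and GPX4 were not called (edgeR quasi-likelihood test, Benjamini-Hochberg adjusted p under 0.05). The 7 calls among 10 genes stand against 73.1% of the 13066 genes tested, with 36.2% called up and 36.9% called down, so the number of calls was close to the background. At the cutoffs for differentially expressed genes (DEGs), which add to the adjusted p a fold change that exceeds 2 or is below 0.5, GPX2 was the only gene of the 10 that rose and PRDX2 the only one that fell, against 23.9% of all genes tested (12.5% higher, 11.4% lower). The libraries of ILL and control did not overlap for 8 of the 10 genes in CPM, the counts scaled to library size with TMM factors,, against 75.4% of all genes. In bulk RNA of this kind, fewer cells expressing a gene and less RNA per cell cannot be told apart.

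**Figure D1:**
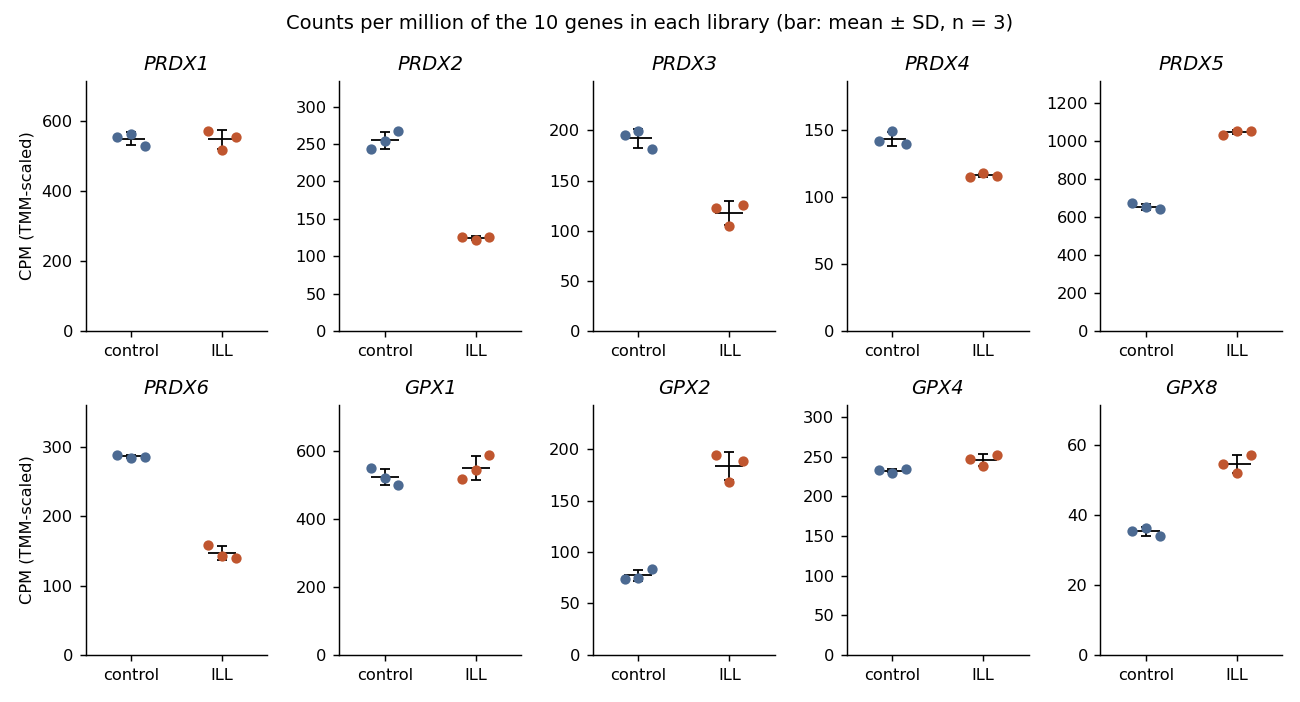
CPM of each of the 10 genes in the 3 control and the 3 ILL libraries, 1 panel per gene, with points for libraries and bars for the mean ± SD (n = 3). PRDX2, PRDX3, PRDX4 and PRDX6 lie lower with ILL, PRDX5, GPX2 and GPX8 lie higher, and the libraries of the groups overlap for PRDX1 and GPX1.

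Typical 2-Cys peroxiredoxins, which work as dimers joined through the peroxidatic and the resolving cysteine, are PRDX1 and PRDX2 in the cytosol, PRDX3 in mitochondria and PRDX4 in the endoplasmic reticulum (ER). The median log2 fold change of the 4 was −0.50, beside −0.0012 over all genes tested, with 3 lower, 0 higher and 1 not called. Over all genes tested, 36.9% were called lower and 36.2% higher.

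PRDX2 (chr19:12796820-12801859, minus strand) is the cytosolic form best known from red blood cells. Its CPM was 244, 254 and 267 in the control libraries and 125, 122 and 126 in the ILL libraries. All 3 ILL libraries lay below the lowest control. The fold change was 0.488 (log2 −1.03, SE 0.053, edgeR adjusted p = 6.7e-15), which placed PRDX2 at percentile 11.0 of all log2 fold changes. Its log2 fold change was −0.9999 without control replicate 3, just short of the fold change cutoff for a DEG, with adjusted p = 9.6e-13 by edgeR.

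PRDX1 (chr1:45511036-45523047, minus strand), the other cytosolic enzyme, was not called. Control libraries held 556, 564 and 529 CPM of PRDX1, and ILL libraries 572, 519 and 556. The groups overlapped, and the fold change was 0.998 (log2 −0.0029, 95% interval −0.11 to 0.10, edgeR adjusted p = 0.96). A change within that interval, of either sign, is not shown to be absent. The ratio of PRDX1 to PRDX2 counts within a library, which needs no scaling between libraries, was 2.16 ± 0.16 in control and 4.41 ± 0.156 with ILL (SD, n = 3), a log2 difference of 1.03. Every ILL library had a higher ratio than every control library, and the two-sided exact permutation p was 0.1, the smallest that 3 against 3 libraries can give (0.133 after Benjamini-Hochberg adjustment over 4 ratios).

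PRDX3 (chr10:119167703-119178833, minus strand) reduces most of the peroxide made in the mitochondrial matrix. It had 195, 199 and 181 CPM in control and 123, 105 and 126 CPM with ILL, so that the groups were apart by more than the range of either. The fold change was 0.613 (log2 −0.71, SE 0.063, edgeR adjusted p = 3.8e-10).

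PRDX4 (chrX:23664262-23686399, plus strand) is the member that consumes peroxide in the ER during oxidative protein folding. With ILL it had 115, 118 and 116 CPM, below the 142, 149 and 139 CPM of the control libraries. Its decrease was the smallest of the 4 that were called, to 0.811 of control (log2 −0.30, SE 0.053, edgeR adjusted p = 1.7e-05).

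PRDX5 (chr11:64318088-64321811, plus strand) is the atypical 2-Cys form, which closes its disulfide within a single chain and is found in the cytosol, mitochondria and peroxisomes. It was the only peroxiredoxin that rose. The control libraries held 673, 652 and 642 CPM and the ILL libraries 1034, 1053 and 1051, a 1.59-fold change (log2 0.67, SE 0.046, edgeR adjusted p = 1.9e-12). All 3 ILL libraries exceeded the highest control library, and the SD was 15.8 CPM in control and 10.7 CPM with ILL.

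PRDX6 (chr1:173477266-173488807, plus strand) is the 1-Cys form, which is recharged with glutathione with the help of GSTP1 and also has phospholipase activity. It had 289, 285 and 286 CPM in control and 158, 143 and 139 CPM with ILL, again without overlap. The fold change of 0.513 (log2 −0.96, SE 0.054, edgeR adjusted p = 4.6e-14) fell short of the DEG cutoff, which its log2 fold change passed at −1.02 without ILL replicate 1 and at −1.03 with scaling to library size alone. GSTP1, its partner, had a log2 fold change of 0.07 and was not called. The ratio of PRDX6 to PRDX5 counts was 0.437 ± 0.00788 in control and 0.141 ± 0.0109 with ILL (SD, n = 3), a log2 difference of −1.64 (exact permutation p = 0.1, adjusted 0.133).

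**Figure D2:**
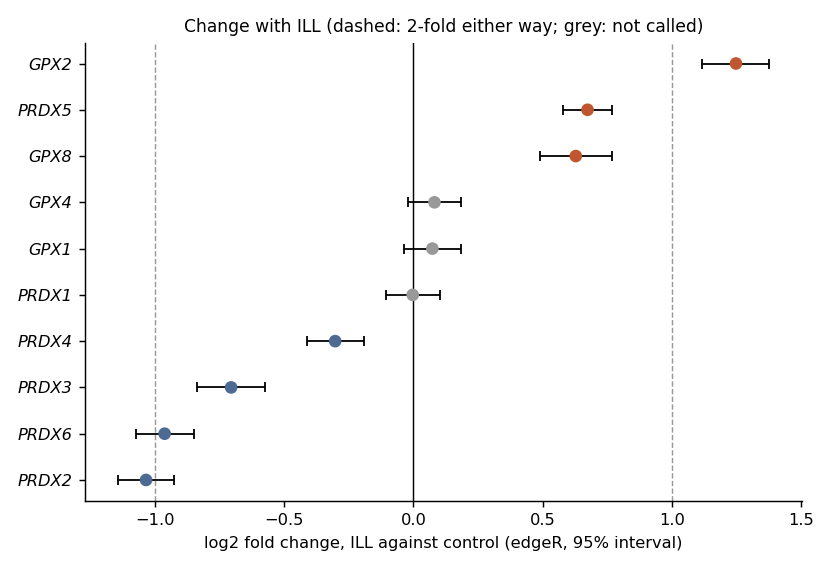
Log2 fold change of ILL against control for the 10 genes, with 95% intervals from edgeR. Dashed lines mark a 2-fold change, orange points genes called higher, blue points genes called lower and grey points genes not called. GPX2 lies highest at 1.247, PRDX2 lowest at −1.03, and the intervals of PRDX1, GPX1 and GPX4 cross 0.

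Among the glutathione peroxidases 2 of 4 rose, none fell and the median log2 fold change was 0.35. The shares of all genes tested were 36.2% higher and 36.9% lower, and 4 genes are few to set against them. GPX2 (chr14:64939152-64942905, minus strand), the selenoenzyme of gut and other epithelia, had the largest change of the 10 genes. Its CPM was 74.0, 74.9 and 83.2 in control and 195, 168 and 188 with ILL, a 2.37-fold change (log2 1.247, SE 0.063, edgeR adjusted p = 5.2e-15). The lowest ILL library was above the highest control library by more than the range within either group. GPX2 stood at percentile 90.7 of all log2 fold changes. The genes whose centred log2 CPM over the 6 libraries lay closest to that of GPX2 were OCLN (Euclidean distance 0.0768), which encodes a tight junction protein, MYD88 (0.129), an adaptor of Toll-like receptors, and TDRD7 (0.133).

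GPX8 (chr5:55160118-55167071, plus strand) is the ER membrane member with cysteine in place of selenocysteine. It had 35.5, 36.4 and 33.99 CPM in control and 54.4, 52.0 and 57.2 CPM with ILL, and every ILL library was higher. The fold change was 1.55 (log2 0.63, SE 0.067, edgeR adjusted p = 8.7e-09). PRDX4 in the ER lumen moved in the opposite direction, and the ratio of GPX8 to PRDX4 counts was 0.246 ± 0.00379 in control and 0.469 ± 0.0255 with ILL (SD, n = 3, log2 difference 0.93, exact permutation p = 0.1, adjusted 0.133).

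GPX1 (chr3:49357171-49358600, minus strand) is the widely expressed cytosolic and mitochondrial selenoenzyme, although GENCODE 29 lists the gene as a polymorphic pseudogene. It had 549, 518 and 500.1 CPM in control and 517, 544 and 588 CPM with ILL, which overlap (log2 0.07, 95% interval −0.04 to 0.18, edgeR adjusted p = 0.22). GPX4 (chr19:1103926-1106791, plus strand) is the selenoenzyme that reduces lipid hydroperoxides within membranes and restrains ferroptosis. It had 233, 230.0 and 235 CPM in control and 248, 238 and 252 CPM with ILL. The groups lay apart on this scale by a small margin, but they overlapped in the deposited FPKM, and the change was not called (log2 0.08, 95% interval −0.02 to 0.18, edgeR adjusted p = 0.14). The ratio of GPX1 to GPX4 counts was 2.25 ± 0.113 in control and 2.23 ± 0.127 with ILL (SD, n = 3, exact permutation p = 0.9, adjusted 0.9).

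The remaining glutathione peroxidases were outside the group of 10 but complete the family. GPX3, the secreted plasma selenoenzyme, rose from 47.0 to 69.3 CPM (log2 0.56, SE 0.065, edgeR adjusted p = 3.2e-08), while GPX7, the other ER member without selenocysteine, had 186 to 248 counts per library and a log2 fold change of 0.23 (edgeR adjusted p = 0.21). GPX5 and GPX6, known from epididymis and olfactory tissue, had 0 counts in all 6 libraries, which allows up to 3 counts in each, for counting error only.

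Levels were compared between genes only per length, in the deposited FPKM. The gene lengths behind these FPKM, back-calculated from counts and FPKM, were 922 bases for GPX2, 1153 for GPX4 and 3750 for GPX8. The GENCODE transcripts used here have 990, 919 and 1411 bases. Levels between genes therefore hold for the back-calculated lengths only. In control the order from high to low was PRDX5, GPX1, PRDX1, PRDX2, GPX4, PRDX6, PRDX4, PRDX3, GPX2 and GPX8. PRDX5 had 781 ± 22.2 FPKM and GPX8 had 9.64 ± 0.368 (SD, n = 3). GPX1 (454 ± 23.4) and PRDX1 (440.5 ± 16.3) overlapped over the libraries, and every other neighbouring pair was apart. With ILL, PRDX5 (1187 ± 6.1 FPKM), GPX1 (455 ± 28.5) and PRDX1 (419 ± 23.3) kept their places. GPX2 moved from rank 9 to rank 5 at 194 ± 15.6 FPKM, where it overlapped with GPX4 (208 ± 7.06), and PRDX2 moved from rank 4 to rank 6 at 131 ± 2.99. GPX1 and PRDX1 overlapped with ILL as well, and the ranks were the same after rescaling by the TMM factors.

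**Figure D3:**
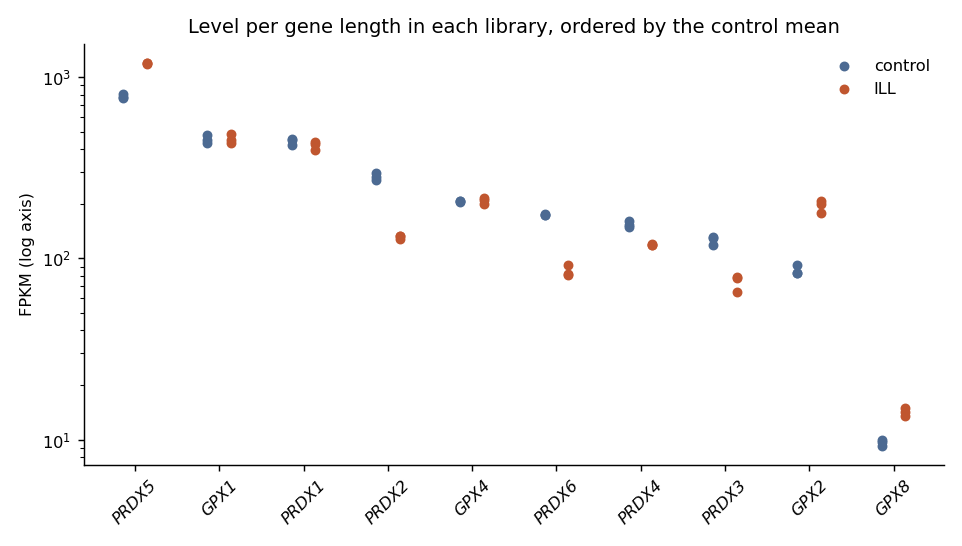
FPKM (log axis) of the 10 genes in each library, ordered by the control mean, with blue points for control and orange points for ILL. PRDX5 is the highest in all 6 libraries and GPX8 the lowest. With ILL, GPX2 rises to the level of GPX4 at the gene lengths of the deposited FPKM.

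Within the summed FPKM of the 6 peroxiredoxins, PRDX5 made up 39.4% to 40.6% in the control libraries and 57.8% to 60.1% in the ILL libraries. PRDX2 went from 14.4% to 6.52% on average, PRDX6 from 8.86% to 4.21%, PRDX3 from 6.47% to 3.67% and PRDX4 from 7.85% to 5.89%, while PRDX1 held 22.5% in control and 20.8% with ILL. The sum itself was 1917 to 1981 FPKM in control and 1977 to 2040 with ILL. These ranges overlap, whereas after rescaling by the TMM factors they were 1881 to 1926 and 2037 to 2077 and did not. PRDX5 thus held the largest share in every library of either group.

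The 4 glutathione peroxidases summed to 741 to 779 FPKM in control and 839 to 914 with ILL, which did not overlap on either scale. GPX2 took 11.4% of that sum in control and 22.3% with ILL, GPX1 60.0% and 52.2%, GPX4 27.3% and 23.9%, and GPX8 1.28% and 1.63%. In the deposited FPKM, GPX2 therefore passed from well below to near the share of GPX4.

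**Figure D4:**
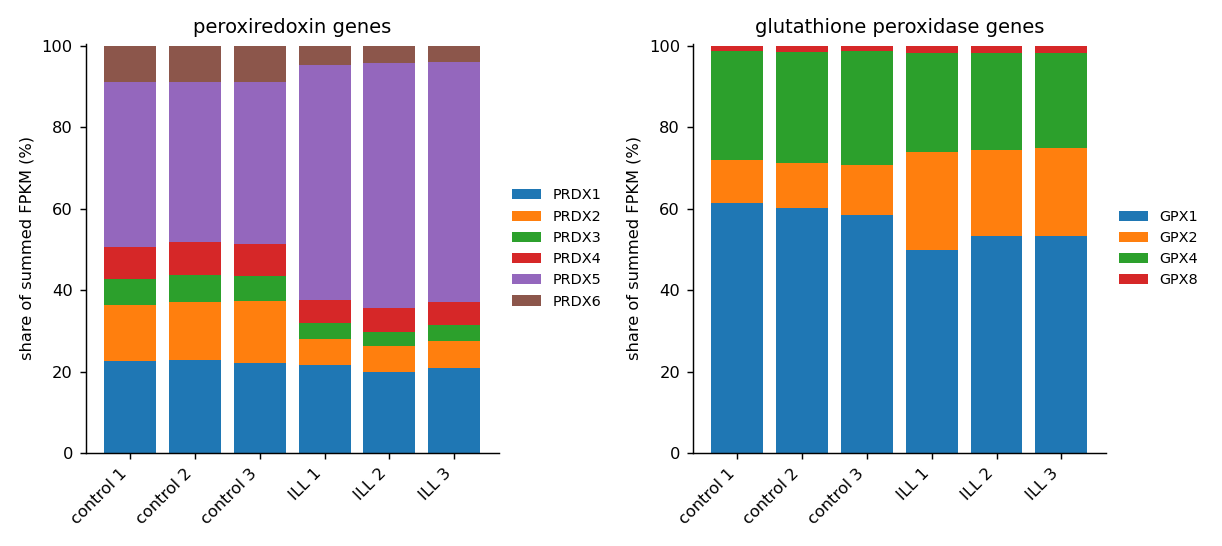
Share of each gene in the summed FPKM of its family (percent), for the peroxiredoxins and the glutathione peroxidases, in each of the 6 libraries. The share of PRDX5 grows from 39.9% to 58.9% on average and that of GPX2 from 11.4% to 22.3%.

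Reads of close relatives or overlapping genes can bear on these values, since the counting method was not given in the sources used here. No stretch of 50 bases was shared between any of the 10 transcripts. For PRDX1, 28% of such stretches also lay in transcripts of MMACHC, which overlaps PRDX1 on the opposite strand. MMACHC had 358 to 490 counts in control and 137 to 162 with ILL, beside 17846 to 21570 for PRDX1. How shared reads were counted is not known, so these counts do not bound the effect on PRDX1. For PRDX2, 21.4% of stretches lay in the antisense gene AC018761.2, and for GPX1 20.3% lay in the pseudogene GPX1P1, neither of which is in the count table, so the values of PRDX2 and GPX1 carry that uncertainty. For PRDX4, PRDX5, GPX2 and GPX4 no such stretch was found.

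Promoter windows of 300 bases, 250 before and 50 after a gene's start, were taken from RefSeq (GRCh38.p14), where 8 of the 10 genes had an entry, with 11 windows in all. PRDX1 and PRDX6 were not matched. Both strands were searched for TGACNNNGC, the core of the antioxidant response element, for TGATGNAA, the composite element of C/EBP and ATF factors, and for TATAAA, and no matches overlapped. They were held by 13.3%, 3.62% and 11.5% of all 35116 RefSeq windows. Among the 11 windows the first was found only in GPX2, the second only in GPX8, and the third in none. The matches are shown with 10 bases on each side, read 5′ to 3′ on the strand of the gene, with the match, which is the reverse complement of the motif, in capitals.
GPX2: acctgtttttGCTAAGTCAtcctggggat
GPX8: aaaattataaTTACATCAcaaatacttt

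The GPX2 stretch is chr14:64942849-64942877 (minus strand), and its match begins 122 bases before the RefSeq start. The stretch lies within the GENCODE span of GPX2, which begins upstream of that RefSeq start. The GPX8 stretch is chr5:55159972-55159999 (plus strand), with the match 189 bases before the start. These windows also had the lowest observed-to-expected CpG ratios, 0.165 in GPX2 and 0.286 in GPX8, beside 0.581 to 1.12 in the other 9 windows and a median of 0.558 over all windows. PRDX5, which also rose, had 0.871 and 0.874. A match is a run of letters in the window and no record of binding.

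Peroxiredoxins depend on the thioredoxin system for recharging. Of its 12 genes 6 rose, 3 fell and 3 were not called, with a median log2 fold change of 0.31. Among all genes tested, 36.2% were called higher and 36.9% lower. TXNRD1, the cytosolic thioredoxin reductase and itself a selenoprotein, rose 2.001 on the log2 scale (SE 0.056, edgeR adjusted p = 4.4e-20), from 155 ± 6.86 to 622 ± 39.9 CPM. SESN2, a stress-induced sestrin, rose by 2.91 and TXNIP, which binds and inhibits thioredoxin, by 1.32, while SESN3 fell by 1.22. The mitochondrial thioredoxin TXN2, which serves PRDX3, fell by 0.25 on the same scale. TXN, the cytosolic thioredoxin, and SRXN1, sulfiredoxin, which restores overoxidized typical 2-Cys peroxiredoxins, were singled out for their roles after their values were seen, and rose by 0.57 and 1.01.

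The glutathione list, covering supply and reduction, had 8 of 13 genes higher, 4 lower and 1 not called, with a median of 0.67. The shares over all genes tested were 36.2% higher and 36.9% lower. CHAC1, which degrades glutathione, rose 4.29 on the log2 scale (SE 0.108, edgeR adjusted p = 7.4e-21), SLC7A11, the cystine importer, 2.94 and the glutaredoxin GLRX 2.06. CHAC2, a second glutathione-degrading enzyme, fell by 2.10, and the mitochondrial glutaredoxins GLRX5 and GLRX2 fell by 0.91 and 0.54. The genes that rose include both import of the precursor and breakdown of the product. GCLC, GCLM and GSS, the enzymes of glutathione synthesis, were singled out for their roles after their values were seen. GCLC rose by 1.45 and GCLM by 0.67, while GSS fell by 0.31.

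Catalase and the superoxide dismutases with their copper chaperone formed a list of 5, with 3 higher and 2 lower. For this and the other lists of this paragraph, the shares over all genes tested were 36.2% higher and 36.9% lower. CAT, the peroxisomal catalase, went from 45.2 ± 3.5 to 91.8 ± 4.12 CPM (SD, n = 3, log2 1.02), SOD2 of mitochondria rose by 0.60, and SOD1 of the cytosol fell by 0.38. Of 14 sources of peroxide or superoxide 9 were tested, of which 6 rose and 2 fell, led by MAOB (1.47), a mitochondrial amine oxidase, and DUOX1 (0.74), while QSOX2 fell by 0.73. Of 8 partners of PRDX4 and GPX8 in the ER, 5 rose, 1 fell and 2 were not called. They included ERO1A, the oxidase that makes peroxide during disulfide formation, at 0.56, and P4HB, a protein disulfide isomerase, at 0.48, whereas TXNDC5 fell by 0.65.

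GPX1, GPX2 and GPX4 need the machinery that makes selenocysteine and inserts it. A list of 11 genes of and around this machinery, selenium handling included, had 3 higher, 5 lower and 3 not called, with a median of 0.018. Of all genes tested 36.2% were called higher and 36.9% lower. SARS1, the seryl-tRNA synthetase, rose by 1.19 and SECISBP2, which binds the insertion element, by 0.64, while SEPHS1 fell by 0.83 and SCLY, which frees selenium from selenocysteine, by 0.66. Of the other 18 selenoprotein genes tested out of 19, 4 rose, 7 fell and 7 were not called. TXNRD1, counted here too, was the highest, MSRB1 rose by 0.74, SELENOH fell by 0.82, and DIO2, a deiodinase, went from 116 to 159 counts per library in control to 1 to 9 with ILL.

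GPX4 acts against lipid peroxidation, and of 13 tested genes of lipid peroxidation and ferroptosis 9 rose, 2 fell and 2 were not called. Their median was 0.30, and 36.2% of all genes tested were called higher and 36.9% lower. PTGS2, a cyclooxygenase, rose by 3.13, the lipoxygenases ALOXE3 and ALOX5 by 2.35 and 1.246, and ACSL4, which activates polyunsaturated fatty acids, by 0.28. LPCAT3, which places such fatty acids in phospholipids, fell by 0.67 and DHODH, an enzyme of pyrimidine synthesis in mitochondria, by 1.35. GPX4 itself was not called, as given above.

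**Figure D5:**
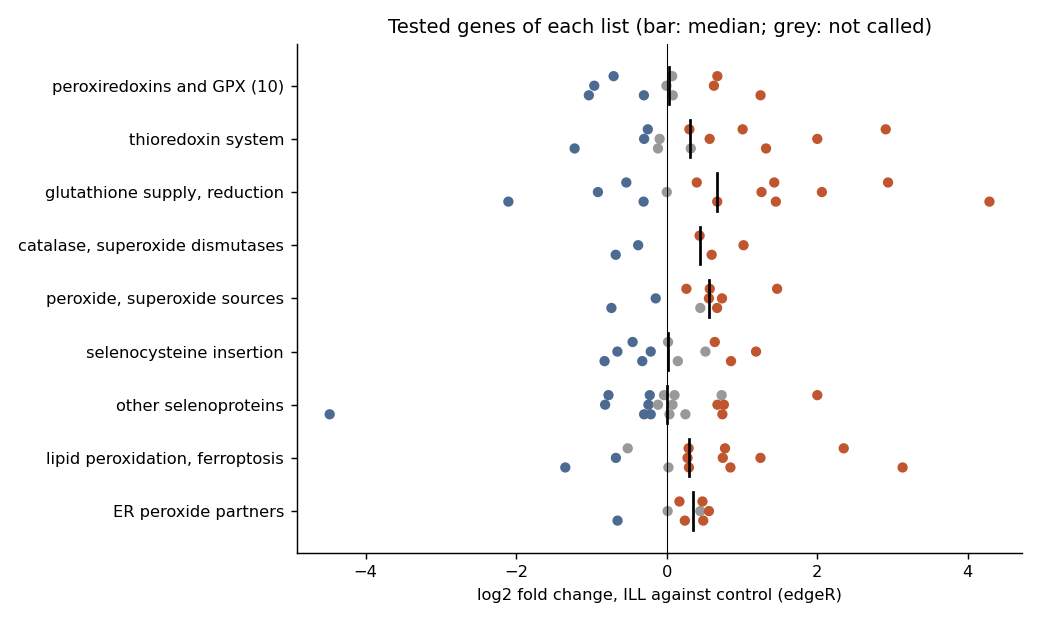
Log2 fold change of ILL against control for each tested gene of the 10 and of 8 related lists, with points for genes (orange higher, blue lower, grey not called) and bars for the list's median. The medians run from 0.000375 for the other selenoproteins to 0.67 for the glutathione list, and single genes spread over both directions in every list.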

How the data were processed

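Messenger RNA libraries of 6 samples of HCCC9810 cells were sequenced. The deposited tables hold unnormalized counts and, separately, FPKM for every gene, as made by the authors. The processing notes name GRCh38 and DESeq2. The aligner, the counter and whether counting used strand are not given in the sources used here. The deposited FPKM were recomputed from counts, gene length and library total, and 100% of 88055 nonzero values agreed within 0.1%. Gene lengths were themselves back-calculated from counts, FPKM and library totals. The agreement therefore shows only that a single length per gene fitted its libraries.

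Counts were tested with edgeR 4.0.16 in R 4.3.3 (filterByExpr, TMM, quasi-likelihood fit on group, Benjamini-Hochberg over 13066 genes). SE and 95% intervals come from the same fit, and CPM are TMM-scaled. On simulated data with 200 changed genes, 100% of log2 changes of 1 in either direction were recovered, 96% of changes of 0.5 and 84% of −0.5, and 0.047% of unchanged genes were called. The changed genes were drawn, balanced in direction, from those with a mean of at least 200 counts. They were far fewer than the 73.1% of genes called in the data, a setting that was not simulated. Library totals were 34282764 to 37758569 counts, and intervals for 0 counts cover counting error only. DEGs were defined as in the study, and DESeq2 1.42.0 and limma 3.58.1 served as alternatives. Ratios were compared by exact two-sided permutation over libraries.

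The 10 genes and the related lists were chosen with earlier results of these data known. Named genes were the 10, the remaining GPX genes, up to 3 with the highest and 3 with the lowest log2 fold change per list (adjusted p under 0.05, mean of at least 1 CPM) and the 3 genes nearest to the gene with the largest change. Sequences and positions are from GENCODE 29 and RefSeq. The protein sequence table was not used here. A marker of the epithelial list is not reported here.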

Additional observations from a re-analysis of the deposited data

How the results depend on the processing

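Over 16 alternatives, 7 of the 10 genes passed the adjusted p in each, 3 higher and 4 lower, and 154 single fold changes kept direction and side of the threshold. The exceptions were all of PRDX1, which was not called and whose log2 fold change turned to 0.0078 with DESeq2 size factors, 0.0042 with the DESeq2 Wald test and 0.0095 when every library had to hold 10 counts. Leaving out 1 library at a time gave PRDX1 −0.0331 to 0.036, with 0.00089, 0.013 and 0.036 without control replicate 1, control replicate 2 and ILL replicate 2. Leaving out single libraries gave 1 to 3 DEGs among the 10 (2 with all), 1 without control replicate 3, where PRDX2 missed the cutoff, and 3083 to 3165 of all genes (3120 with all). All-gene DEGs (1635 higher, 1485 lower) were 1591 by limma on log2(FPKM + 1) with 668 higher and 923 lower, 1609 with no filter (680 and 929), and 2156 on log2(FPKM + 0.1) (909 and 1247). These fits change the test, the scale and the filter and use no TMM factors, and the cause of the lower counts was not tested. With library size alone and by limma, PRDX6 was also a DEG. Median log2 fold change of all genes moved to −0.101 by limma on log2(FPKM + 0.1). Summed FPKM of the 10 became 2649 in control and 2957 with ILL after TMM rescaling. The log2 difference of the GPX1 to GPX4 ratio ranged from −0.0462 to 0.039 over single libraries left out, turning to 0.0263 without control replicate 1. With a replicate block there were 3111 DEGs, and same-numbered libraries did not deviate together (r = −0.0218 to 0.0107), nor did every library correlate best with its own number. An alternative added after seeing the data, without replicate 1 of both groups because of their HBB counts, gave 3069 DEGs, 3 of them among the 10.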
